A study of Homo sapiens with 12 samples.

Results

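The mRNA levels of 38 nuclear receptor genes were examined in A375, an established human cell line from a metastatic melanoma. The list holds receptors outside the PPAR, RXR and LXR groups: the receptors for steroids, retinoic acid, thyroid hormone and vitamin D, the xenobiotic and bile acid receptors, the receptors of the circadian clock, and the orphan receptors. Members were found by their symbols among the 23705 genes of the count table, and all 38 had a row.

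Cells grown in DMEM with 10% fetal bovine serum, at passages 30 to 32, were treated for 24 h with the DMSO vehicle, with 5 μM of rosiglitazone (RGZ), with 2 μM of T0070907 (T007), or with 5 μM of RGZ and 2 μM of T007 together. RGZ is an agonist and T007 an antagonist of PPARγ, a lipid-activated member of the same superfamily, and all conditions carried DMSO at a dilution of 1 in 10000. Each of the 4 conditions was represented by 3 libraries, 1 from each of 3 independent experiments, in which the RNA of technical replicates had been pooled before sequencing. All libraries came from a single cell line, and the total count of a library lay between 8319455 and 11375227.

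Nuclear receptors are transcription factors that bind DNA through a zinc finger domain, mostly at copies of the half-site AGGTCA or close relatives of it, and many are switched by a small lipophilic ligand. Retinoic acid, thyroid hormone and vitamin D receptors pair with an RXR partner, whereas steroid receptors form homodimers. Orphan receptors have no established ligand, and several of them are controlled mainly by how much of them is made. The REV-ERB receptors, encoded by *NR1D1* and *NR1D2*, repress the clock gene *BMAL1*, and the ROR receptors activate from the same elements. Vitamin D and retinoid receptors have long been studied in melanocytes and melanoma cells for their effects on growth and pigmentation.

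The labelled cell type was checked against marker genes. Of 12 markers of the melanocyte lineage and melanoma, 7 were above 3 counts in every library, among them *SOX10* with a mean of 311 CPM, the count relative to the scaled library total, in vehicle, *CSPG4* with 341 CPM and *MITF* with 45.9 CPM, while *TYR* had no count in any library and *DCT* no more than 1. All 5 markers of dedifferentiated melanoma were above 3 counts in every library, and *AXL* had a mean of 519 CPM in vehicle. The summed level of the melanocyte and melanoma list was between 653 and 940 CPM in the vehicle libraries and between 662 and 882 CPM in the RGZ libraries, and that of the dedifferentiated list was between 723 and 877 CPM and between 554 and 725 CPM in the same libraries. Of 4 keratinocyte markers, *KRT10* and *KRT14* were above 3 counts in every library and *KRT1* had none, and the summed level was between 87.9 and 114 CPM in vehicle and between 85.9 and 99 CPM in RGZ. Of 5 fibroblast markers, 3 were above 3 counts in every library, and the summed level was between 15.1 and 35.2 CPM in vehicle and between 11.4 and 22.1 CPM in RGZ. Endothelial markers summed to at most 2.5 CPM in any library and leukocyte markers to at most 1.39 CPM, and adipocyte markers were at or below 3 counts in all libraries. The part of these differences in the results below was not tested. In RNA of a whole culture, fewer cells that express a gene and less RNA of it per cell cannot be told apart.

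Promoter sequences are shown for 3 receptor genes whose levels moved with RGZ, since PPARγ recognises spaced repeats of the half-site named above. The 250 bases before a start site were taken from RefSeq (build GRCh38.p14) and are written on the strand of the gene. Capitals mark GGGCGG on either strand, the GC box bound by SP factors, and, in *NR1D1* alone of the 3, a relaxed direct repeat with a spacing of 2 bases, GNGNCANNGNGNCA.
NR1D1, chr17:40100590-40100839, minus strand: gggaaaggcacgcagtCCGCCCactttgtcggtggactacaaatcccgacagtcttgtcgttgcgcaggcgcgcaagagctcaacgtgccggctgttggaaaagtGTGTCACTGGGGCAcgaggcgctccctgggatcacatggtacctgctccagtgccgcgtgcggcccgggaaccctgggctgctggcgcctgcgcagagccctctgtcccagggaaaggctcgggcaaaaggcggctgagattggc
ESRRA, chr11:64305274-64305523, plus strand: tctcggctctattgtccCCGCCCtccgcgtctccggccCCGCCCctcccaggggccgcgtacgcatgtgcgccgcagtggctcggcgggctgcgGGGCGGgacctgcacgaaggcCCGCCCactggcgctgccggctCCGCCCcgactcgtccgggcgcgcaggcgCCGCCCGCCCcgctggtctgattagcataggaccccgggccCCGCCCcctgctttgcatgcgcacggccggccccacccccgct
RORB, first of 2 start sites, chr9:74497085-74497334, plus strand: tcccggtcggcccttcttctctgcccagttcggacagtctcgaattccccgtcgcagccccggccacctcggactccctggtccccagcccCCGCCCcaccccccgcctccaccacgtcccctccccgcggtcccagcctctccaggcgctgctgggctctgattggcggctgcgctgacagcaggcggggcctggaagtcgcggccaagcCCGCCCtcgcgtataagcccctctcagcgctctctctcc

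A window was available for 33 of the 38 receptors and for 6 of the 7 that were called in any comparison. The letters AGGTCA, searched on both strands of windows that also held the 50 bases after the start site, were in 13.8% of all 35116 windows, in those of 16.5% of all genes, in those of 8 of the 33 receptors and in those of 0 of these 6 genes. The repeat AGGTCANAGGTCA was in 0.0228% of all windows and in none of the 33 receptors. The relaxed repeat GNGNCANNGNGNCA was in 1.66% of all windows, in those of 2.04% of all genes, in those of 3 of the 33 receptors and in those of 2 of the 6 genes, *NR1D1* and *NR2F1*, and the relaxed repeat with a spacing of 1 base, GNGNCANGNGNCA, was in 1.65% of all windows and in none of the 6. The relaxed repeats were chosen after the sequences had been seen. GGGCGG was in 45% of all windows and in 39 of the 77 receptor windows. Since a gene can have several windows, the shares by gene were 48.3% of all genes, 23 of the 33 receptors and 5 of the 6 called genes, with 8 matches in *ESRRA*. These matches describe letters and not bound sites.

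Of the 38 receptors, 24 passed edgeR's filterByExpr filter and were tested together with all other expressed genes, 13522 in total. The highest levels per length in vehicle belonged to the orphan receptors *NR2F6*, *ESRRA* and *NR2F2* and to the retinoic acid receptors *RARG* and *RARA*. Levels were scaled to CPM by edgeR's TMM method and then set against transcript length, with the longest transcript of each gene in GENCODE as the measure. *NR2F6*, a relative of the COUP-TF repressors, reached 49.3 ± 5.69 CPM per kb (SD, n = 3), which was as high as or higher than 88.6% of the tested genes with a known length. *ESRRA*, which regulates genes of mitochondrial energy metabolism, had 29.4 ± 0.924 CPM per kb, and *NR2F2*, or COUP-TFII, had 21.7 ± 3.51 CPM per kb. *RARG* followed with 21.1 ± 1.62 CPM per kb and *RARA* with 16.6 ± 0.587 CPM per kb. The median of the 13290 tested genes with a length was 7.82 CPM per kb, and 12 of the 24 receptors lay above it.

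In libraries of vehicle from experiments 1, 2 and 3, *NR2F6* had 116, 133 and 106 CPM, and in RGZ 115, 133 and 115 CPM. It had 121, 126 and 112 CPM in T007, and 149, 115 and 117 CPM in the combination. Its groups overlapped, and no comparison called it. *NR2F2* had 113, 133 and 96.4 CPM in vehicle, 117, 113 and 90.8 CPM in RGZ, 104, 129 and 85.3 CPM in T007, and 105, 133 and 92.6 CPM in the combination. The third experiment was the lowest in every condition. *RARG* had 56.8, 65.2 and 65 CPM in vehicle, 55.7, 62 and 59.8 CPM in RGZ, 67.8, 76.5 and 71.8 CPM in T007, and 60.2, 66 and 64.8 CPM in the combination, so that its 3 T007 libraries lay above those of vehicle. *RARA* had 50.9, 52.1 and 48.6 CPM in vehicle, 54.5, 62.8 and 49.7 CPM in RGZ, 55.6, 49.7 and 46.6 CPM in T007, and 54.5, 45.3 and 50 CPM in the combination, with overlap between all groups.

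**Figure D1:**
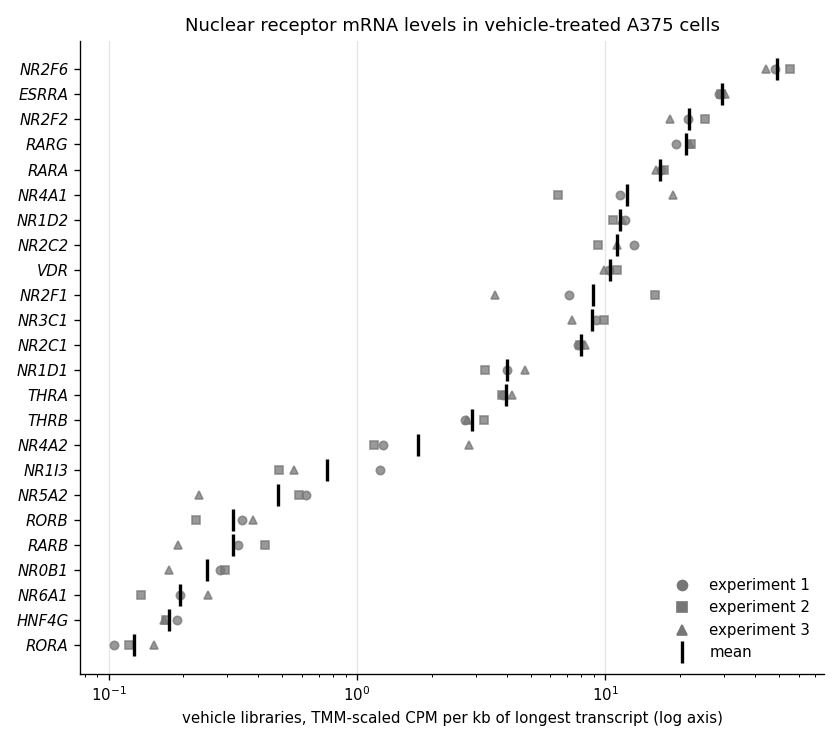
Level of the 24 tested receptor genes in the 3 vehicle libraries, in TMM-scaled CPM per kb of the longest transcript on a log axis, with a symbol for each experiment and a bar for the mean. The genes run from NR2F6 at 49.3 CPM per kb to RORA at 0.126 CPM per kb, and the symbols of NR4A1 and NR2F1 are spread more widely than those of their neighbours.

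A middle group held *NR4A1*, *NR1D2*, *NR2C2*, *VDR*, *NR2F1*, *NR3C1* and *NR2C1*, with means from 12.2 down to 7.97 CPM per kb. *NR4A1* is an immediate early gene without a classical ligand, *NR2C1* and *NR2C2* encode the testicular orphan receptors, and *NR3C1* encodes the glucocorticoid receptor, with 8.79 ± 1.32 CPM per kb. *NR1D1* and *THRA* had 4 and 3.97 CPM per kb, *THRB* had 2.91 CPM per kb and *NR4A2* had 1.75 CPM per kb. The remaining tested genes, *NR1I3*, *NR5A2*, *RORB*, *RARB*, *NR0B1*, *NR6A1*, *HNF4G* and *RORA*, lay between 0.759 and 0.126 CPM per kb. Of the 23 pairs of neighbours in this order, 17 had overlapping vehicle libraries. The libraries of the 2 neighbours did not overlap for *NR2F6* and *ESRRA*, *ESRRA* and *NR2F2*, *RARG* and *RARA*, *NR2C1* and *NR1D1*, *THRA* and *THRB*, and *HNF4G* and *RORA*.

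The 14 receptors that were not tested never exceeded 13 counts in a library. *NR4A3*, the third NR4A gene, had between 3 and 13 counts, and *NR3C2*, the mineralocorticoid receptor, had between 4 and 10. *ESRRG*, *NR2E3*, *ESR2*, *ESR1* and *HNF4A* were above 3 counts in some libraries, with maxima of 10, 7, 7, 5 and 4 counts. The other 7 stayed at or below 3 counts everywhere: *PGR*, the progesterone receptor, *ESRRB*, *NR5A1*, *NR1H4*, the bile acid receptor, *NR1I2*, the xenobiotic receptor also called PXR, *NR2E1*, and *NR0B2*, the small heterodimer partner. A count of 3 corresponded to between 0.258 and 0.371 CPM, which is also the level that a count of 0 allows, and differences between conditions were not tested for these genes. In *NR3C2*, singled out after its values were seen, the vehicle libraries had 0.908, 0.952 and 1.18 CPM and lay above all libraries of RGZ, with 0.52, 0.685 and 0.406 CPM, of T007, with 0.462, 0.627 and 0.862 CPM, and of the combination, with 0.494, 0.421 and 0.429 CPM. Of the classical steroid receptors on the list, *NR3C1* alone passed the filter.

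The first comparison asked which receptor genes responded to the PPARγ agonist. *NR1D1* and *ESRRA* rose with RGZ. With the experiment added to the model as a replicate block, *RORB* and *NR2F1* rose as well, and *VDR* and *THRA* fell. DESeq2 with the same block called *NR1D1*, *ESRRA*, *NR2F1* and *VDR* but not *RORB* and *THRA*, beside 6.63% of all genes to which it gave an adjusted p. The edgeR quasi-likelihood test, adjusted by the Benjamini-Hochberg method, called 2 of the 24 tested receptors when the block was left out, beside 1.24% of all tested genes. Adding the block raised this to 6 receptors, beside 9.3% of all tested genes. A gene was called when its adjusted p-value was under 0.05. The median size of the log2 fold change without the block was 0.321 over the tested receptors and 0.117 over all tested genes. It was 0.169 and 0.08 for T007 against vehicle, and 0.127 and 0.127 for the combination against vehicle. Of the 24 receptors, 8 had a vehicle mean under 3.1 CPM. The widest changes for RGZ were those of *RARB* at -1.18 and *NR0B1* at 1.01, which had at most 18 counts in a library. In 6 of the 24 the RGZ and vehicle libraries did not overlap, with *ESRRA*, *NR1D1*, *RORB* and *NR2C1* higher and *THRA* and *VDR* lower, while this held for 16.8% of all tested genes.

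*NR1D1* (NCBI gene 9572, chromosome 17), the clock repressor REV-ERBα whose promoter is printed above, had 11.1, 9.04 and 13.1 CPM in the vehicle libraries of experiments 1 to 3 and 20, 19.6 and 19.7 CPM in the RGZ libraries. It had 8.78, 9.85 and 9.82 CPM in T007 and 10.4, 8.52 and 11.4 CPM in the combination. The 3 RGZ libraries were above all 9 others, which overlapped among themselves. Its log2 fold change for RGZ was 0.83 ± 0.15 (SE), 1.78-fold, with an edgeR adjusted p of 0.02, and 0.000103 with the block. Without the block this call held when the vehicle library of experiment 3 was left out, with an adjusted p of 0.0218, and was lost when any of the other 5 libraries was left out, with an adjusted p of up to 0.0821. With the block it held in 6 of 6 such fits.

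*RORB* (NCBI gene 6096, chromosome 9), a receptor that binds the same elements as REV-ERB and is best known from the retina and brain, was much less abundant. Its counts were 29, 18 and 31 in vehicle and 49, 35 and 80 in RGZ, which correspond to 3.29, 2.14 and 3.65 CPM and to 5.09, 4 and 8.12 CPM. All RGZ libraries were above all vehicle libraries. RGZ against vehicle gave a log2 fold change of 0.92 ± 0.42, and the edgeR adjusted p was 0.467, or 0.0108 in the blocked fit. With the block the call was lost without the vehicle or the RGZ library of experiment 3, with an adjusted p of up to 0.207, and DESeq2 with the block gave an adjusted p of 0.0831.

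*ESRRA* (NCBI gene 2101, chromosome 11) had 65.3, 66.6 and 69.4 CPM in vehicle, 82.4, 96.5 and 87.7 CPM in RGZ, 59.5, 64.5 and 66.9 CPM in T007, and 71, 65.2 and 70.2 CPM in the combination. The RGZ libraries again lay above all others. The log2 fold change was 0.40 ± 0.07, 1.32-fold, with an edgeR adjusted p of 0.0235, and 0.000774 with the block. Without the block the call held when the RGZ library of experiment 1 was left out, with an adjusted p of 0.0254, and was lost without any of the other 5, with an adjusted p of up to 0.101, whereas with the block it held in 6 of 6 fits. *ESRRA* shares 284 exon bases with *TRMT112* on the opposite strand, which had a log2 fold change of 0.12 ± 0.08 for RGZ (edgeR adjusted p = 0.67).

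*VDR* (NCBI gene 7421, chromosome 12), the vitamin D receptor, had 49.5, 53.1 and 47.2 CPM in vehicle and 36, 39.2 and 38.3 CPM in RGZ. It had 51.1, 60.9 and 53.5 CPM in T007 and 45, 52.7 and 45.2 CPM in the combination, so that the RGZ libraries were the lowest of the 12. The log2 fold change for RGZ was -0.40 ± 0.09, and the edgeR adjusted p was 0.0601, or 0.000956 in the blocked fit, and the latter call held without each of the 6 libraries. DESeq2 called *VDR* without the block as well, with an adjusted p of 0.0206.

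*THRA* (NCBI gene 7067, chromosome 17), a thyroid hormone receptor, had 19, 18.7 and 20.6 CPM in vehicle, 13.8, 15 and 15.5 CPM in RGZ, 19.4, 19.1 and 17.7 CPM in T007, and 14.9, 16.7 and 15.3 CPM in the combination. Both groups that had received RGZ lay below both groups that had not. The log2 fold change for RGZ was -0.39 ± 0.10, with an edgeR adjusted p of 0.0911, and 0.0155 with the block, where 2 of 6 fits with a library left out still called it. The lost calls were those without the vehicle or the RGZ library of experiment 1, without the vehicle library of experiment 3 and without the RGZ library of experiment 2, with an adjusted p of up to 0.12, and DESeq2 with the block gave an adjusted p of 0.0822.

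*NR1D1* and *THRA* lie on opposite strands and share 263 bases of exon at their 3′ ends, which is 9.49% of the longest *NR1D1* transcript and 5.37% of that of *THRA*. The sources used here do not give whether reads were counted by strand, so reads from these bases cannot be assigned to either gene with certainty. The measured changes of the pair for RGZ had opposite signs.

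*NR2F1* (NCBI gene 7025, chromosome 5), or COUP-TFI, had 27.5, 61 and 13.8 CPM in vehicle, 37, 77.6 and 19.5 CPM in RGZ, 22.6, 53.5 and 8.79 CPM in T007, and 25.1, 62.5 and 16.1 CPM in the combination. The conditions overlapped widely, but within each experiment the RGZ library was the highest and the T007 library the lowest. The log2 fold change for RGZ was 0.39 ± 0.72 without the block (edgeR adjusted p = 0.896) and 0.41 ± 0.10 with it (edgeR adjusted p = 0.014). The blocked call was lost without the vehicle library of experiment 2 or 3 or the RGZ library of experiment 1 or 3, with an adjusted p of up to 0.0787. *NR2F1* shares 158 exon bases with *NR2F1-AS1* on the opposite strand, whose log2 fold change with the block was -0.28 ± 0.17.

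**Figure D2:**
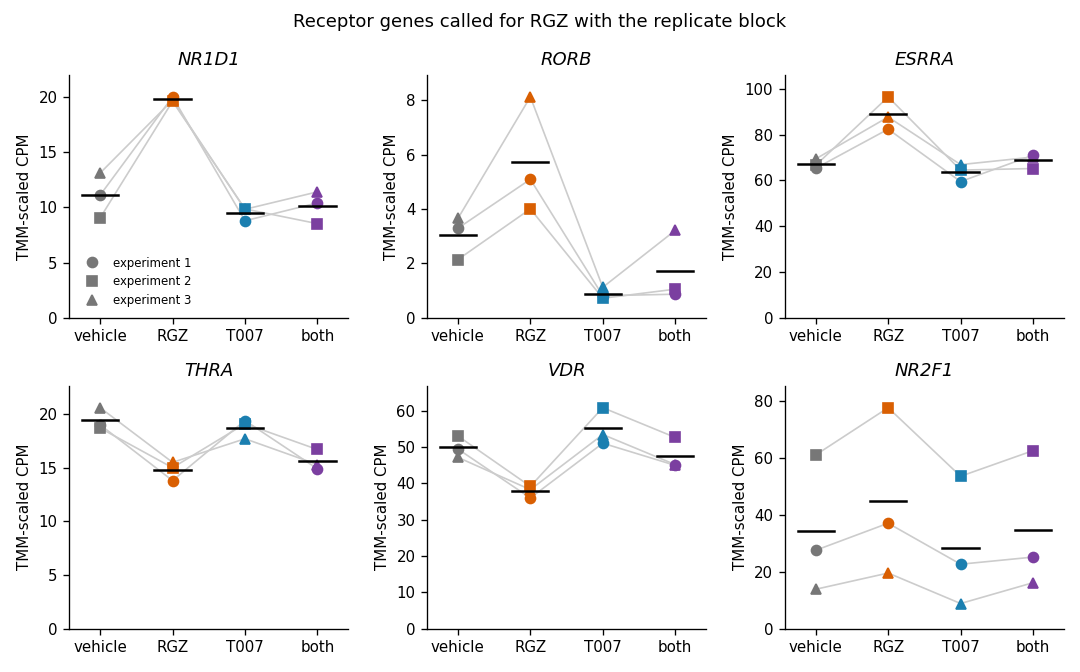
TMM-scaled CPM of the 6 receptor genes called for RGZ with the replicate block, by condition ("both" is RGZ with T007). Symbols and grey lines mark the experiments and black bars the means. NR1D1 sits between 19.6 and 20 CPM in RGZ and between 8.52 and 13.1 CPM elsewhere, and NR2F1 is ordered by experiment in every condition.

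Other receptors also overlap a counted gene, among them *NR2F2*, which shares 47 bases with *MIR1469* on the same strand. *THRB*, which overlaps *THRB-AS1* by 42 bases, had 20.2, 24 and 20.5 CPM in vehicle, 18.6, 21.6 and 17.9 CPM in RGZ, 18.5, 26.9 and 18.9 CPM in T007, and 18, 24.7 and 17.6 CPM in the combination. Its second experiment was the highest in every condition. *NR1I3*, the constitutive androstane receptor, had 1.82, 0.714 and 0.824 CPM in vehicle, 0.52, 1.94 and 1.02 CPM in RGZ, 1.04, 0.895 and 1.12 CPM in T007, and 0.741, 0.947 and 0.857 CPM in the combination, with overlap between all groups. It shares 661 exon bases with *TOMM40L* on the opposite strand, whose log2 fold change for RGZ was 0.30 ± 0.07 (edgeR adjusted p = 0.0919, and 0.0146 with the block).

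The other 18 tested receptors were not called for RGZ by either fit. *NR2C1* had 32.2, 32.6 and 34.2 CPM in vehicle and 38.7, 37.9 and 38.5 CPM in RGZ, without overlap, and its log2 fold change was 0.22 ± 0.09 (edgeR adjusted p = 0.41, and 0.132 with the block). *RARB*, a receptor gene that retinoic acid itself induces, had 1.02, 1.31 and 0.588 CPM in vehicle and 0.416, 0.228 and 0.609 CPM in RGZ, from no more than 18 counts in any library, with a log2 fold change of -1.18 ± 0.43 (edgeR adjusted p = 0.327, and 0.144 with the block). The paralogues of the called genes had smaller fitted changes, and whether they differed from the called genes was not tested. *NR1D2* had a log2 fold change of -0.09 ± 0.10 beside 0.83 for *NR1D1*, *THRB* had -0.16 ± 0.17 beside -0.39 for *THRA*, and *RORA*, with at most 16 counts, had -0.32 ± 0.39 beside 0.92 for *RORB*. The glucocorticoid receptor *NR3C1* had -0.11 ± 0.19.

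**Figure D3:**
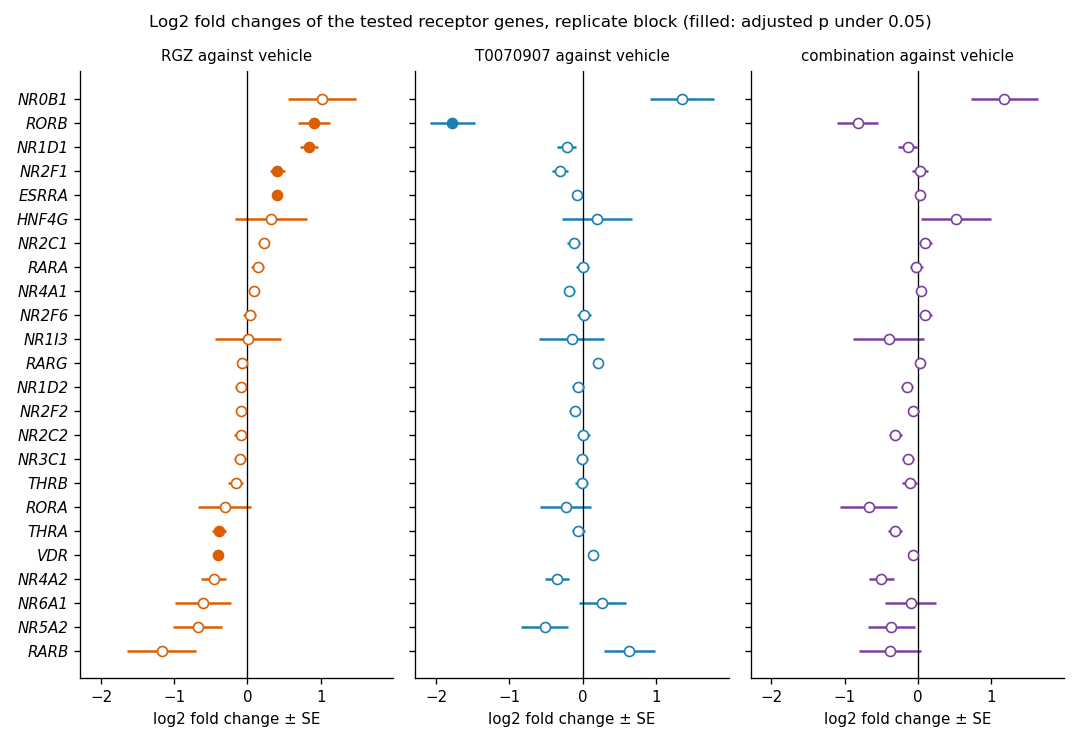
Log2 fold change and SE of the 24 tested receptor genes against vehicle, for RGZ, T007 and the combination, from the edgeR model with the replicate block. Filled symbols mark an adjusted p under 0.05: 6 genes for RGZ, 1 for T007 (RORB) and 0 for the combination.

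The second comparison asked for the effect of the antagonist alone. With the block, *RORB* was lower with T007. Its libraries had 7, 8 and 13 counts, or 0.809, 0.716 and 1.12 CPM, all below the 3 vehicle libraries. T007 against vehicle gave a log2 fold change of -1.76 ± 0.49, and the edgeR adjusted p was 1, or 0.00692 in the blocked fit. The blocked call was lost without the vehicle library of experiment 1 or the T007 library of experiment 3, with an adjusted p of up to 0.189. Without the block, edgeR called 0 of the 24 receptors beside 0.0074% of all tested genes, and 2 receptors and 3.1% of all tested genes had an unadjusted p under 0.05. With the block it called 1, beside 0.91% of all tested genes. DESeq2 and limma-voom with the block also called *RORB* alone, beside 0.895% and 0.806% of the genes to which each gave an adjusted p, which for DESeq2 included 18 of the 24 receptors.

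In 5 receptors the T007 and vehicle libraries did not overlap, beside 7.67% of all tested genes: *RARB*, *RARG* and *NR0B1* were higher, and *RORB* and *NR2C1* lower. *RARG* had a log2 fold change of 0.21 ± 0.08 and an edgeR adjusted p of 1, and 0.15 with the block. *RARB*, which shares 28 exon bases with *TOP2B*, had 1.62, 1.43 and 1.55 CPM in T007 and 0.618, 0.631 and 0.964 CPM in the combination, and a log2 fold change for T007 of 0.65 ± 0.36 with an edgeR adjusted p of 1. *NR1D1* and *ESRRA* had -0.22 ± 0.15 and -0.08 ± 0.07, and neither was called by either fit.

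The third comparison asked whether T007 altered the levels reached with RGZ. *NR1D1* and *ESRRA* were lower with the combination than with RGZ alone, and with the block *RORB* and *NR2F1* were lower and *VDR* higher. This comparison shares the RGZ libraries with the first one, so that the fold changes for RGZ and for the combination against RGZ are not independent. Without the block 2 receptors were called, beside 1.24% of all tested genes, and with it 5 were called, beside 11.4%. The libraries of 6 receptors did not overlap, and those of 17.7% of all tested genes did not either.

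For *NR1D1* the log2 fold change of the combination against RGZ was -0.97 ± 0.15, with an edgeR adjusted p of 0.00908, and 2.52e-05 with the block, and it was called in 21 of 21 alternative fits. For *ESRRA* it was -0.37 ± 0.07 with an edgeR adjusted p of 0.0367, and 0.00163 with the block. The unblocked call held without the RGZ library of experiment 1 and was lost without any of the other 5 libraries, with an adjusted p of up to 0.137. *RORB* had 0.865, 1.05 and 3.21 CPM in the combination, from 7, 10 and 30 counts, and a log2 fold change of -1.73 ± 0.44 against RGZ, with an edgeR adjusted p of 0.0957, and 9.83e-05 with the block. Without the block edgeR called *RORB* once the combination library of experiment 3, the highest of its group, was left out, with a log2 fold change of -2.56 and an adjusted p of 0.0139. DESeq2 without the block called *RORB* with all libraries kept. *VDR* had 0.33 ± 0.09, with an edgeR adjusted p of 0.124, and 0.00484 with the block, and *NR2F1* had -0.36 ± 0.71, with an edgeR adjusted p of 0.872, and 0.0194 with the block. The blocked call of *NR2F1* was lost without the RGZ library of experiment 1 or 3, with an adjusted p of up to 0.101. *THRA* had 0.09 ± 0.10 and was not called.

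The combination was then compared with vehicle and with T007 alone. Against vehicle, edgeR called 0 of the 24 receptors and 0% of all tested genes with and without the block, although 10.6% of all genes and 2 receptors had an unadjusted p under 0.05 without it and 21.2% and 5 receptors with it. DESeq2 with the block gave an adjusted p to 8 of the 24 receptors and called *NR2C2*, beside 5.22% of the 4347 genes to which it gave one. *THRA* was the single receptor whose combination and vehicle libraries did not overlap, beside 12.2% of all tested genes, with a log2 fold change of -0.31 ± 0.10 and an edgeR adjusted p of 0.453, and 0.112 with the block. *NR1D1* and *ESRRA* had -0.14 ± 0.15 and 0.04 ± 0.07 in this comparison, and *RORB* had -0.81 ± 0.46. A p-value that misses the threshold does not show that the levels returned to those of vehicle.

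Against T007 alone, 0 receptors were called without the block, beside 0.037% of all tested genes, with 6 receptors and 15% of all tested genes at an unadjusted p under 0.05, and 1 was called with it, beside 8.76%. It was *NR2C2* (NCBI gene 7182, chromosome 3), a testicular orphan receptor with 106, 75.7 and 90.3 CPM in vehicle, 91.4, 76.8 and 86 CPM in RGZ, 97.7, 88.8 and 87.1 CPM in T007, and 66.6, 74.7 and 76.4 CPM in the combination. Every combination library was below every T007 library. Combination against T007 gave a log2 fold change of -0.33 ± 0.11, with an edgeR adjusted p of 0.261, and 0.0336 with the block, and 2 of 6 blocked fits with a library left out called it. DESeq2 with the block called *NR2C2* and *NR2F1*, beside 8.27% of all genes to which it gave an adjusted p, 15 of the 24 receptors among them. The call of *NR2C2* was lost without the T007 library of experiment 1 or 2 or the combination library of experiment 1 or 3, with an adjusted p of up to 0.178. Without the combination library of experiment 1 the blocked log2 fold change was -0.20, against -0.32 with all libraries. *NR2C2* shares 1197 exon bases with *MRPS25* and 155 with *FGD5-AS1*, both on the opposite strand, and the log2 fold changes of these genes here were 0.08 ± 0.09 and -0.11 ± 0.07. In 4 receptors the libraries did not overlap, beside 18.7% of all tested genes.

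The interaction contrast asked whether the effect of RGZ differed with and without T007. It called 0 receptors in both fits, beside 0% of all tested genes without the block and 0.281% with it, and *NR1D1* and *ESRRA* had an unadjusted p under 0.05 in both, beside 3% and 9.79% of all tested genes. DESeq2 and limma-voom called 0 receptors as well, beside 0.466% and 0.155% of all genes with an adjusted p in their blocked fits. *NR1D1* had an interaction of -0.75 ± 0.21 on the log2 scale (edgeR adjusted p = 1, and 0.092 with the block), and *ESRRA* had -0.29 ± 0.11 (edgeR adjusted p = 1, and 0.329 with the block). *RORB*, which was lower with T007 in the presence and in the absence of RGZ in the blocked fits, had 0.03 ± 0.53.

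Several receptor genes differed more between experiments than between treatments. *NR4A1* had 55.4, 31.3 and 90.5 CPM in vehicle, 56.3, 36 and 95.3 CPM in RGZ, 50.5, 29.7 and 74.6 CPM in T007, and 57.3, 30.4 and 96.8 CPM in the combination. Experiment 3 was the highest and experiment 2 the lowest in every condition, and the experiment accounted for 96.6% and the condition for 2.46% of the sum of squares of log2(CPM + 0.5). The corresponding share of the experiment was 89.4% in *NR2F1*, 86% in *NR2F2*, 84.6% in *NR4A2*, 81.4% in *NR3C1* and 79.1% in *THRB*. In contrast, the condition accounted for 89.8% in *NR1D1*, 88.3% in *ESRRA*, 87.1% in *THRA*, 83.9% in *VDR* and 79.5% in *RORB*. The medians over the 24 receptors were 25.6% for the condition and 20.2% for the experiment, and those over all tested genes were 34.3% and 27.7%.

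A test of the experiment term in the blocked edgeR model, added after these values had been seen, called 10 of the 24 receptors, beside 30.5% of all tested genes. *NR2F1* had the highest ratio between experiments among the 24, 4.38-fold, with mean levels of 28.1, 63.7 and 14.5 CPM in experiments 1 to 3 (edgeR adjusted p = 1.25e-11), and *NR4A1* had a ratio of 2.8-fold, with 54.9, 31.8 and 89.3 CPM (edgeR adjusted p = 2.81e-11). *NR4A2*, a second immediate early receptor, had 3.37, 3.45 and 7.85 CPM (edgeR adjusted p = 1.91e-06). Both NR4A genes were highest in experiment 3, in which *NR2F1*, *NR2F2* and *NR3C1* were lowest. The labels give no property of the experiments beyond their number.

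**Figure D4:**
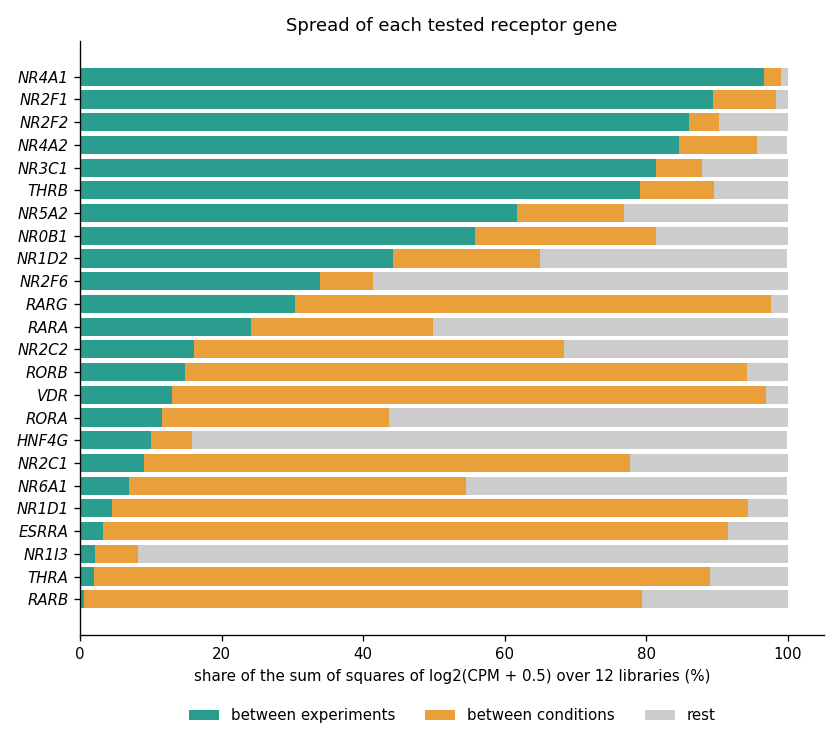
Share of the sum of squares of log2(CPM + 0.5) over the 12 libraries that lay between experiments, between conditions and in neither, for the 24 tested receptor genes. The share between experiments is 96.6% in NR4A1 and 89.4% in NR2F1, and the share between conditions is 89.8% in NR1D1 and 88.3% in ESRRA.

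Partners and targets of the receptors were taken from 7 lists without the receptors themselves. In the list of the circadian clock, to which *NR1D1* belongs, 0 of 13 tested genes were called for RGZ without the block and 2 rose with it. These were *NPAS2*, a partner of *BMAL1* related to *CLOCK*, with a log2 fold change of 0.54 ± 0.13 (edgeR adjusted p = 0.0683, and 9.74e-06 with the block), and *NFIL3*, a repressor of clock output, with 0.42 ± 0.18 (edgeR adjusted p = 0.433, and 0.0139 with the block). The median log2 fold change of the 13 genes was -0.15, and that of all tested genes was -0.009. *BMAL1*, the target of REV-ERB repression, had 7.61, 9.76 and 11.3 CPM in vehicle and 10.3, 10.8 and 11.4 CPM in RGZ, and was not called. With the combination against RGZ, *NPAS2* fell and *DBP*, an activator of clock output, rose in the blocked fit, with log2 fold changes of -0.40 ± 0.06 and 0.85 ± 0.20.

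In the list of retinoid metabolism and retinoic acid receptor targets, 1 of 12 tested genes was called for RGZ without the block, and 3 rose and 2 fell with it. *RDH10*, which oxidises retinol to retinaldehyde, had a log2 fold change of 0.63 ± 0.13 (edgeR adjusted p = 0.0425). *CYP26B1*, which degrades retinoic acid, and *RBP4*, the retinol carrier, had 1.06 ± 0.19 and 1.65 ± 0.29 with the block. *DHRS3*, which reduces retinaldehyde back to retinol, and *STRA6*, the receptor for *RBP4*, had -0.61 ± 0.10 and -0.33 ± 0.08 with the block. In the combination against RGZ the blocked fit called all 5 in the other direction, beside 11.4% of all tested genes in either direction. The 5 genes were picked by their call for RGZ, and both comparisons share the RGZ libraries. Opposite signs were therefore favoured in advance, and the share over all genes is not a baseline for these 5. *RDH10* and *DHRS3* were called in this comparison also without the block, with log2 fold changes of -0.64 ± 0.13 and 0.90 ± 0.19. The median over the 12 genes for RGZ was -0.02.

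In the list for the thyroid hormone receptors, 3 genes were tested. *HR*, a corepressor of the thyroid hormone and vitamin D receptors, had a log2 fold change of 0.84 ± 0.06 for RGZ with the block (edgeR adjusted p = 1.32e-07) and -0.70 ± 0.07 for T007 (edgeR adjusted p = 8.77e-05). *KLF9*, which thyroid hormone and glucocorticoids induce, had -0.74 ± 0.09 for RGZ (edgeR adjusted p = 2.69e-05) and 0.37 ± 0.08 for T007 (edgeR adjusted p = 0.0425) in the same fit. Neither was called without the block. In the vitamin D list 7 genes were tested, of which 0 were called for RGZ without the block. With the block *DHCR7*, which diverts the precursor of vitamin D to cholesterol, rose by 0.29 ± 0.06 and *CUBN*, an uptake receptor, had -1.26 ± 0.36 for RGZ. The counts of *CUBN* were low, with 1.59, 1.19 and 1.77 CPM in vehicle and 0.624, 0.343 and 0.914 CPM in RGZ. In the RGZ library of experiment 2, a count of 3 corresponded to 0.343 CPM.

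The list of partners and targets of the estrogen-related receptors had 14 tested genes, of which 0 were called for RGZ in either fit, with a median log2 fold change of 0.11. Of its coactivators, *PPARGC1A* had -0.30 ± 0.49 and *PPARGC1B* 0.34 ± 0.21, and *PPARGC1B* and *PPRC1* were lower in the combination than with RGZ in the blocked fit, with -0.54 ± 0.12 and -0.22 ± 0.05, and neither was called without the block. Of 15 tested targets and chaperones of the glucocorticoid receptor, 0 were called without the block. In the blocked fit *DUSP1* rose by 0.59 ± 0.12 while *SGK1* and *KLF9* fell. Of 8 tested genes of the estrogen receptor list, 0 were called for RGZ without the block. *IGFBP4* and *XBP1* rose by 0.47 ± 0.08 and 0.22 ± 0.06 and *CCND1* had -0.22 ± 0.05 with the block, in cells in which *ESR1* had between 0 and 5 counts and *ESR2* between 1 and 7. Beside these shares, the block called 4.95% of all tested genes as higher and 4.35% as lower for RGZ.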

How the data were processed

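Total RNA was sequenced from 12 TruSeq libraries on an Illumina instrument, and the authors deposited raw counts for each NCBI gene number, to which no scaling had been applied. The submitters' processing notes name the build hg19, whereas the aligner, the counter, the annotation and the use of strand are not given in the sources used here. The table held 0 columns of other samples. Symbols were matched for 23538 of 23705 gene numbers and a length from GENCODE 29 for 22848.

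The fits used edgeR 4.0.16 under R 4.3.3: TMM scaling, the filterByExpr filter and a quasi-likelihood model of 4 groups in all 12 libraries, with Benjamini-Hochberg adjustment over 13522 genes. The SE of a log2 fold change was computed from the F statistic. Without the block, the p-values measure the spread between 3 independent experiments with 1 cell line. With the block, shifts shared by the libraries of an experiment are taken out, and the p-values measure the spread that remains. The experiment numbers in the labels pair the libraries, and the correlation of deviations from the group means was 0.567 on average over 18 pairs of libraries from the same experiment, from 0.0743 to 0.765, with 17 over 0.1. The experiment was therefore also fitted as a replicate block. The common dispersion was 0.0193 without and 0.00333 with it.

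Alternatives were DESeq2 1.42.0 and its size factors, limma 3.58.1 (voom), no filter, a minimum of 10 counts per library, fits of the compared groups alone, and leaving out each library, and the script was tested on simulated data. DESeq2 with the block, leaving out libraries with the block and the test of the experiment term were added after seeing the data. The members and lists were chosen with earlier results of these data known. Library values were given for every called receptor, the 5 highest levels per kb and receptors whose exons overlap another counted gene, and of each list at most 6 called genes were named in order of the unadjusted p for RGZ. A count of 3 served as the detection floor, and floors cover counting error only.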

Additional observations from a re-analysis of the deposited data

How the results depend on the processing

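The number of receptors called depended on the replicate block. Without it, RGZ against vehicle gave 2, T007 against vehicle 0, the combination 0 against vehicle, 2 against RGZ and 0 against T007, and the interaction 0. With the replicate block edgeR and limma-voom gave 6, 1, 0, 5, 1 and 0, and DESeq2 gave 4, 1, 1, 5, 2 and 0. DESeq2 without the block gave 3 for RGZ, with *VDR* added, and 3 for the combination against RGZ, with *RORB* added. A model of only the groups compared gave 0 for RGZ and 1 for the combination against RGZ. Leaving out each library in turn without the block gave 0 to 1 for RGZ, 1 to 2 for the combination against RGZ and 0 elsewhere. With the block it gave 3 to 5 for RGZ, 0 to 1 for T007, 0 to 4 for the combination against vehicle, 4 to 6 against RGZ, 0 to 5 against T007 and 0 to 1 for the interaction. The causes of these shifts were not tested.

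Counting calls with or without the block, edgeR called 13 pairs of a gene and a comparison. Their 270 values under alternatives were set against the fit without the block, which called *NR1D1* and *ESRRA* alone. For the other genes an unchanged side of the threshold therefore meant no call. Calls ranged from 4 of 21 alternatives for *THRA* with RGZ to 21 of 21 for *NR1D1*, combination against RGZ. Of the 270 values, 186 kept their direction and their side of the threshold, 18 were no longer past it, 64 were newly past it, and 2 changed direction. Both changes were in *NR2F1*, where leaving out the RGZ library of experiment 2 without the block gave -0.27 for RGZ and 0.29 for the combination against RGZ, within ranges over libraries left out of -0.27 to 1.11 and of -1.12 to 0.29. Depth limits the receptors with fewest reads: 8 of the 24 tested had a vehicle mean under 3.1 CPM, and 16 had at least 10 counts in every library, *RORB* not among them.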
